A study of Mus musculus with 8 samples.

Results

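Genes whose tumour change ran in opposite directions under 2 plasmids were examined in the livers of mice given a carcinogen. The members were the genes with a fitted log2 difference between tumour and adjacent liver of opposite sign in mice injected with a pT3 vector plasmid and in mice injected with a pT3 plasmid for mouse APOBEC3, called mA3 in the sample titles. Of the 34745 genes of the deposited count table, 15009 passed a filter on low counts, and 5409 of these were members. In 2490 of them, 16.6% of the genes tested, the level was lower in vector tumours and higher in mA3 tumours than in adjacent liver. In the other 2919, 19.4%, it was higher in vector tumours and lower in mA3 tumours. The remaining 9600 genes changed in the same direction under both plasmids.

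All mice were age-matched males given diethylnitrosamine (DEN), an alkylating liver carcinogen, and tissue was taken 8 months later. Mice injected with the pT3 vector plasmid gave relatively normal liver, called vector adjacent here, and tumour, called vector tumour. Mice injected with the pT3 plasmid for the mouse deaminase (mouse APOBEC3B in the labels) gave mA3 adjacent liver and mA3 tumour. Each group held 2 libraries, numbered 1 and 9 for the vector mice and 1 and 2 for the mA3 mice, so that the adjacent liver had DEN and plasmid in common with the tumour of the same mouse. The mouse strain, the promoter of the plasmid and the cells that took it up were not given in the sources used here. Beyond age-matching, sex, DEN and plasmid, the labels give only a number for each animal. The main model treated the libraries of a mouse as independent, and its p-values measure the spread between these samples.

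Secreted and membrane proteins, which hepatocytes make in large amounts, enter the endoplasmic reticulum (ER) through the Sec61 channel and are folded there by chaperones such as BiP, the product of Hspa5. When unfolded proteins accumulate, the unfolded protein response acts through ATF6, IRE1 with XBP1, and PERK with ATF4, and raises the transcription of chaperones, of the ER-associated degradation machinery and of amino acid and stress genes. APOBEC3 proteins are cytidine deaminases that act on single-stranded DNA. Mitochondria, by contrast, obtain the subunits of their respiratory chain from both the nuclear and their own genome.

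The count totals ran from 12969929 to 22882531 per library. Albumin (Alb), the plasma protein that defines hepatocytes, was between 21092 and 171220 CPM in the 8 libraries. CPM stands for counts after TMM scaling of the libraries to 1 size. On the first principal component, which held 50.7% of the variance, the adjacent libraries spanned −61.2 to −42.5, with vector tumour 1 not far off at −31.8, while vector tumour 9 was at 60.7 and the mA3 tumours at 81.3 and 102. Gpc3, a surface proteoglycan of liver tumours, was at 9.11 CPM in vector tumour 1, at 242 CPM in vector tumour 9, at 127 and 794 CPM in the mA3 tumours and at most at 3.29 CPM in adjacent liver. A change in a bulk sample can come from fewer cells of a type or from less RNA per cell, and the 2 cannot be told apart.

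The targeted gene, Apobec3 (ENSMUSG00000009585, chr15:79891659-79915906, plus strand), was itself a member. Its levels were 2.71 and 9.96 CPM in vector adjacent liver, 7.85 and 15.2 in vector tumours, 44.96 and 35.1 in mA3 adjacent liver and 10.6 and 15.3 in mA3 tumours; here and below the first value of a pair is the lower-numbered mouse. Both mA3 adjacent libraries were above the other 6, and the tumour libraries labelled mA3 lay within or next to the range of the vector tumours. The log2 tumour change was 0.88 ± 0.59 (± SE) under the vector, whose libraries overlapped, and −1.63 ± 0.59 under mA3, whose libraries did not. The difference between these changes, mA3 minus vector, was −2.51 ± 0.83 (unadjusted p = 0.0167, edgeR quasi-likelihood test) and ran from −3.71 to −1.83 with a library left out. Reads of the plasmid and of the mouse's own gene cannot be told apart in a count per gene. Apobec3 did not set the tumours labelled mA3 apart from the vector tumours, and every direction given here for mA3 tumours rests on the label of those libraries.

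The design asks whether the change from adjacent liver to tumour itself differed between the plasmids. No gene passed the edgeR quasi-likelihood test of this interaction at an adjusted p under 0.05 (0% of 15009 genes; smallest adjusted p = 0.842). limma on voom or FPKM values also called 0 genes, DESeq2's Wald test called 12, of which 7 were members, and edgeR without the filter on low counts called 316, of which 134 were members. At an unadjusted p under 0.05, 305 genes (2.03%) had a higher and 444 (2.96%) a lower tumour change under mA3. These 749 genes were no more than the share of 0.05 expected among 15009 genes if none differed. Of the 749 genes, 451 were members. The members among all genes tested, 5409 of 15009, stand beside each of these member counts. The tumour change passed for 0% of genes under the vector by edgeR, with 1397 genes at an unadjusted p under 0.05 and 232 calls by DESeq2. Under mA3 it passed for 118 genes (0.786%) in the higher and 60 (0.4%) in the lower direction, 178 in all, and for 560 with the mouse as a block. The opposite signs chose the members from the same values that the interaction tests, so the members' counts and sizes are descriptions.

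Most members changed little under at least one plasmid. The smaller of a member's 2 absolute log2 changes had a median of 0.17 (quartiles 0.07 and 0.30) in those higher in mA3 tumours and of 0.20 (0.09 and 0.39) in those lower. Just inside the rule lay Kdm7a, a histone demethylase, with a log2 change of −0.00021 under the vector and 0.97 under mA3, and Zbtb40, a zinc finger protein gene, with 0.34 and −0.00035. Just outside it lay Mrpl55, a gene of the mitochondrial ribosome, with −2.3e-05 and −0.44. The 3 were picked for this closeness.

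A stricter group of 435 members had no overlap between tumour and adjacent libraries under either plasmid, in opposite directions. In 266 of them (1.77% of genes tested) both vector tumours were below both vector adjacent libraries and both mA3 tumours were above both mA3 adjacent libraries. In 169 (1.13%) the order was the reverse. Genes without overlap in the same direction under both plasmids were more frequent, with 1478 higher and 1193 lower in tumours. Read mouse by mouse, 583 genes (3.88%) were lower in the tumour of both vector mice and higher in that of both mA3 mice, and 469 (3.12%) showed the reverse. In 3433 members (63.5%) the 2 vector mice differed in sign, against 48.3% of all genes tested. In 2081 members (38.5%) the 2 mA3 mice did, against 29.5%.

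**Figure D1:**
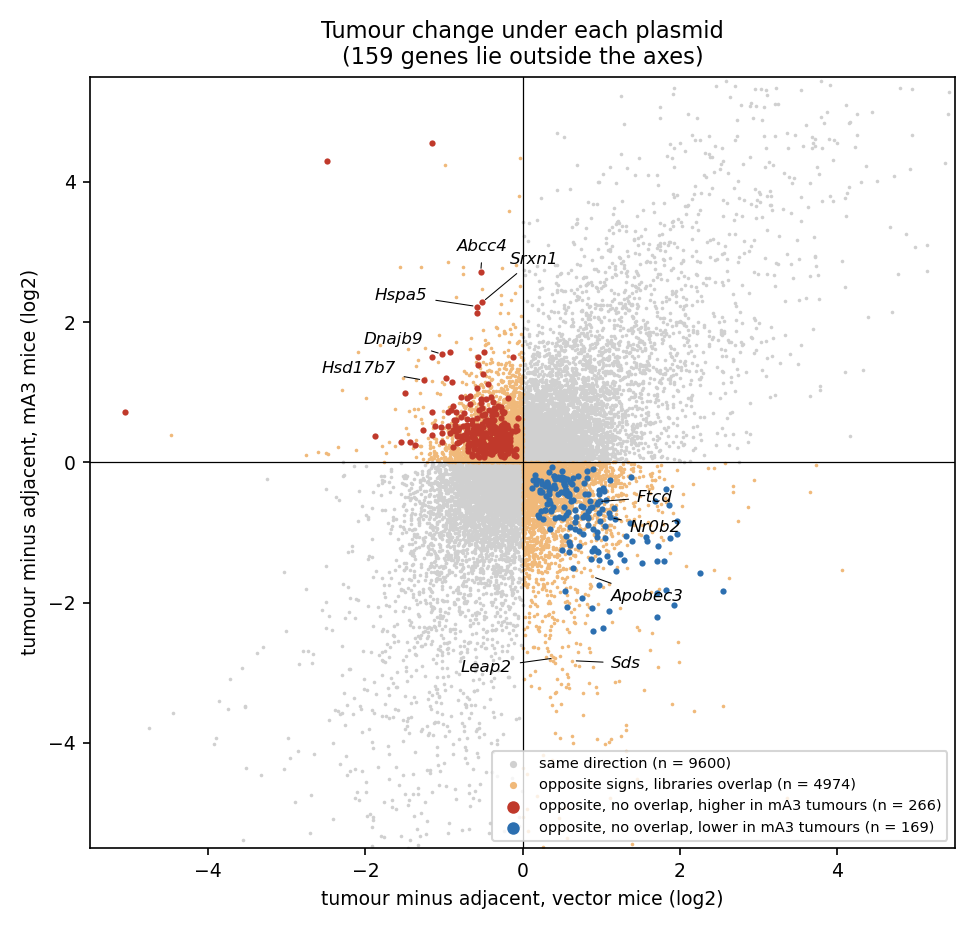
Fitted log2 change from adjacent liver to tumour under the vector (x axis) against that under mA3 (y axis); a point is 1 of the 15009 genes tested, of which 159 lie outside the axes, and larger red and blue points are the 435 members without overlap. Members occupy the upper left and lower right quadrants, where Hspa5 (−0.58, 2.22) and Leap2 (0.42, −2.79) lie.

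Genes of ER protein folding were frequent among the members higher in mA3 tumours. Of 28 ER chaperones and folding enzymes tested, 15 (53.6%) were members in this direction and 2 (7.14%) in the other, against 16.6% and 19.4% of all genes. No overlap under either plasmid was seen in 4, all higher in mA3 tumours, against 1.77% of all genes in that direction. Over the list, the median log2 change was −0.12 in vector tumours and 0.89 in mA3 tumours. The median interaction difference was 1.12 against −0.04 over all genes. By mouse the median change was −0.13 and −0.14 in the 2 vector mice and 1.09 and 0.78 in the 2 mA3 mice. With each library left out in turn, the median difference stayed between 0.84 and 1.27, and 14 to 17 of the 28 genes were members higher and 1 to 2 lower in mA3 tumours.

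Hspa5, which encodes BiP, the Hsp70 chaperone of the ER lumen (ENSMUSG00000026864, chr2:34771970-34777547, plus strand), measured 941 and 777 CPM in vector adjacent liver, 584 and 566 in vector tumours, 462 and 577 in mA3 adjacent liver and 2520.0 and 2330.1 in mA3 tumours. Both vector tumours lay below both vector adjacent libraries, and both mA3 tumours lay above all 6 other libraries. The log2 change was −0.58 ± 0.36 under the vector and 2.22 ± 0.38 under mA3, which passed (adjusted p = 0.0437, edgeR), although 0 genes did with any 1 mA3 library left out. The difference was 2.80 ± 0.52 (unadjusted p = 0.000636). It did not pass in the main test, while DESeq2's Wald test gave an adjusted p of 4.37e-06. Over all 16 alternatives the adjusted p ran from 4.37e-06 to 1.

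Pdia4, a disulphide isomerase (ENSMUSG00000025823, chr6:47796141-47813430, minus strand), had 173 and 146 CPM in the vector tumours against 222 and 225 in the adjacent liver of the same mice, and 464 and 440.5 CPM in the mA3 tumours against 163 and 141. Its groups did not overlap under either plasmid, and the difference was 2.06 ± 0.44 on the log2 scale. Dnajb9, a J-domain co-chaperone of BiP (ENSMUSG00000014905, chr12:44205897-44210068, minus strand), went from 157 and 81.7 CPM in adjacent liver to 44.03 and 73.5 in tumours under the vector, and from 43.5 and 69.1 to 149 and 179 under mA3. The mA3 adjacent libraries were as low in Dnajb9 as the vector tumours, and the difference was 2.56 ± 0.63. Canx, the lectin chaperone calnexin, was the other chaperone without overlap, with a difference of 1.30 ± 0.53; it was chosen for that lack of overlap.

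Further chaperone genes were higher in mA3 tumours while the vector groups overlapped. Hyou1, a large Hsp70 relative that exchanges nucleotide on BiP, had 195 and 96.1 CPM in the vector tumours against 176 and 168 in the adjacent liver of the same mice, and 332 and 345 CPM in the mA3 tumours against 117 and 110.4. Vector tumour 1 was above and vector tumour 9 below both vector adjacent libraries, and the difference was 1.82 ± 0.55. Manf, a small secreted ER protein, had 79.1 and 52.4 CPM in the vector tumours against 62.5 and 85.8 in the adjacent liver of the same mice, and 146 and 123 CPM in the mA3 tumours against 50.4 and 49.4. Vector tumour 1 lay between the vector adjacent libraries and vector tumour 9 below them, while both mA3 tumours were above all others, and the difference was 1.60 ± 0.46.

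**Figure D2:**
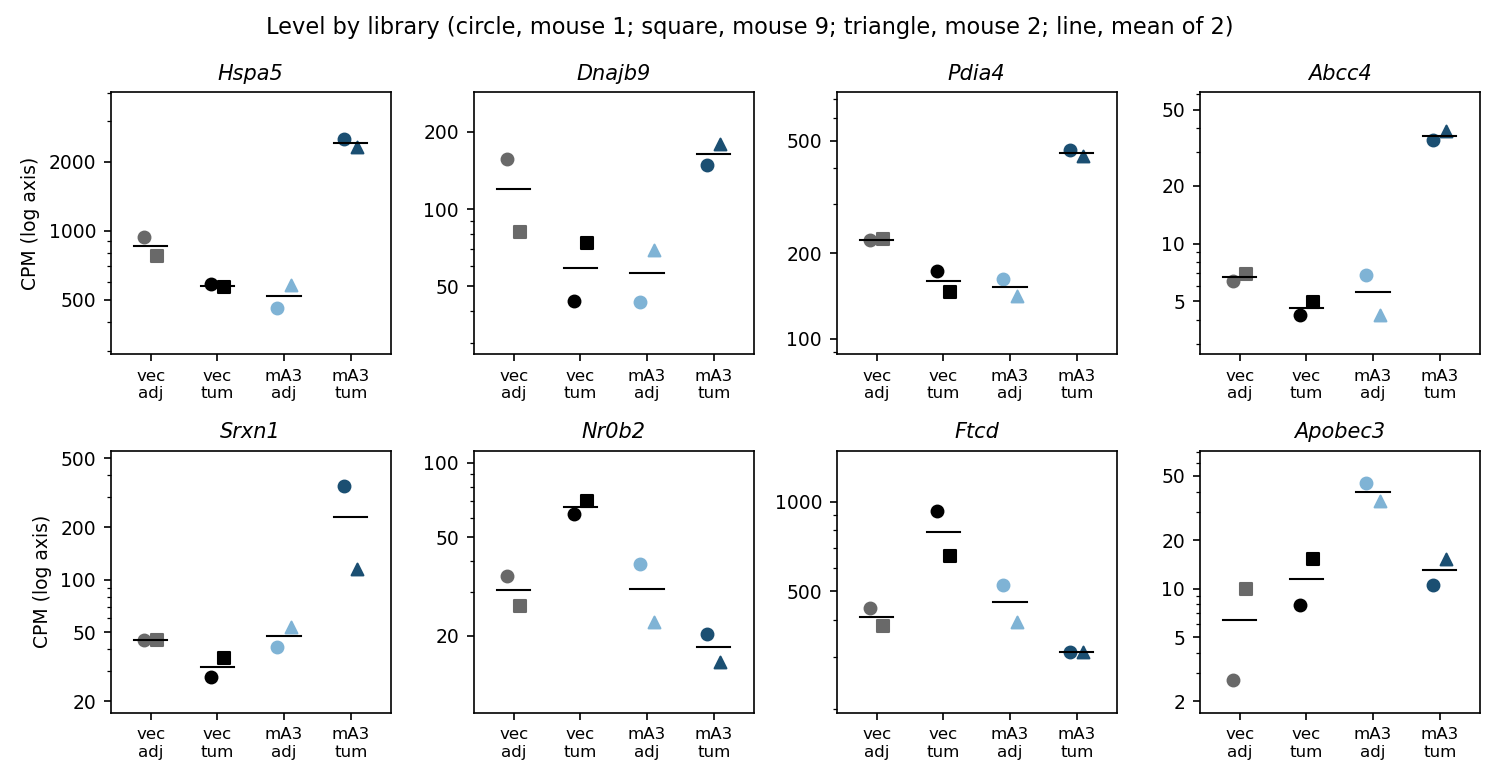
Level in CPM (log axis) of selected members in each of the 8 libraries, in columns for adjacent liver (adj) and tumour (tum) of vector (vec) and mA3 mice; a point is 1 library, its shape the mouse, and a line the mean of 2 libraries. In Hspa5 the mA3 tumours stand at 2520.0 and 2330.1 CPM, above all other libraries, and in Nr0b2 the vector tumours stand at 62.3 and 70.1 CPM, above all others.

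Promoter sequence was examined for a feature that the rule did not use. The ER stress element, at which ATF6 and XBP1 act, was searched as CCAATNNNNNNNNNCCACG on both strands in RefSeq promoters (GRCm38.p6, 250 bases before to 50 after the annotated start). It was present in 39 of 32851 promoters (0.119%). Of the chaperone list, 23 genes matched a RefSeq promoter and 7 of these held it (30.4%), namely Hspa5, Calr, Hsp90b1, Canx, Pdia6, Dnajc3 and Creld2. All of these but Pdia6 were members higher in mA3 tumours. In ER-associated degradation 2 of 18 genes held it, Derl3 and Syvn1, neither of them a member, and none of the other lists described here did. Over all members matched, it was present in 7 of 1871 (0.374%) of those higher and in 1 of 1877 (0.0533%) of those lower in mA3 tumours, against 11 of 6981 (0.158%) of the genes with the same direction. Since the chaperone genes make up most of these matches, the members' share and the list's share are not separate observations. The chaperone list was written from general knowledge, so its share is a property of the list and not a result of these data. A match is a description of the letters only.

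Of these promoters 4 are shown, as 220 bases up to the base before the start, 5′ to 3′ on the gene's strand, with the element in capitals. The start is that of RefSeq, which can differ from the gene bounds of the deposited table. They are those of BiP, of the Hsp90 of the ER (Hsp90b1), of calnexin, and of Creld2, which encodes an ER protein with disulphide isomerase activity. Hspa5 (chr2:34771870-34772089, plus strand) holds the element at positions −65 to −47 from the start, Hsp90b1 (chr10:86705445-86705664, minus strand) at −212 to −194 and, on the opposite strand, at −107 to −89, Canx (chr11:50325674-50325893, minus strand) at −145 to −127, and Creld2 (chr15:88819426-88819645, plus strand), also on the opposite strand, at −126 to −108.
Hspa5: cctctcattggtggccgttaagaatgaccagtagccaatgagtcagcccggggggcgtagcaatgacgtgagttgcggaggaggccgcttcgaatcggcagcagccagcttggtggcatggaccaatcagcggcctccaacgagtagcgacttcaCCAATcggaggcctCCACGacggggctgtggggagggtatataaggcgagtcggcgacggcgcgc
Hsp90b1: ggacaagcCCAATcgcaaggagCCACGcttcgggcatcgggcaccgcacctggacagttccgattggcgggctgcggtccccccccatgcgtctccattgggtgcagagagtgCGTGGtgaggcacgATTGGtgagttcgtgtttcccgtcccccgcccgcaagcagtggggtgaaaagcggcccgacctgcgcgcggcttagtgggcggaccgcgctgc
Canx: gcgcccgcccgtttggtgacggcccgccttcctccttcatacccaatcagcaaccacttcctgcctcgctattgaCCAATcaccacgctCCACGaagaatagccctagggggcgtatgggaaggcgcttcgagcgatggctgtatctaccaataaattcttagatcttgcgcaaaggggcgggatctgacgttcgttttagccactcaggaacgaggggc
Creld2: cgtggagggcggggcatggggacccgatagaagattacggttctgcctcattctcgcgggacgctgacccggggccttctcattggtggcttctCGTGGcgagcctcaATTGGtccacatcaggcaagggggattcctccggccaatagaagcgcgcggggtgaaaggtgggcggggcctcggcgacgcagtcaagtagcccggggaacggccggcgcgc
The log2 differences of these genes were 2.80 ± 0.52 for Hspa5, 2.03 ± 0.62 for Hsp90b1, 1.30 ± 0.53 for Canx and 2.09 ± 0.70 for Creld2. Pdia4 and Dnajb9, with differences of 2.06 ± 0.44 and 2.56 ± 0.63, had no match in this window.

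The machinery that removes misfolded proteins from the ER behaved like the chaperones in count, with smaller differences. Of 23 genes of ER-associated degradation, 13 (56.5%) were members higher in mA3 tumours and 1 (4.35%) was lower, against 16.6% and 19.4% of all genes. No overlap was seen in 4, all higher in mA3 tumours, against 1.77% of all genes in that direction. Over the list, the median log2 change was −0.18 in vector and 0.39 in mA3 tumours. The median difference was 0.73 (0.55 to 0.95 with a library left out). Derl1, a channel component for dislocation, had 90.8 and 130.1 CPM in the vector tumours against 157 and 110.4 in the adjacent liver of the same mice, and 286 and 248 CPM in the mA3 tumours against 98.3 and 139. Its vector groups overlapped and its mA3 groups did not, with a difference of 1.45 ± 0.51. Vimp, a selenoprotein that recruits the ATPase p97 to the ER membrane, had 37.8 and 57.1 CPM in the vector tumours against 66.6 and 60.7 in the adjacent liver of the same mice, and 103 and 99.04 CPM in the mA3 tumours against 48.7 and 70.9. Vimp had no overlap under either plasmid and a difference of 1.18 ± 0.46. Differences of the other named genes were 1.28 ± 0.47 for Edem3, a mannosidase of glycoprotein disposal, 1.14 ± 0.46 for Sel1l, the adaptor of the HRD1 ligase, and 0.92 ± 0.42 for Herpud2, a membrane protein of the same pathway.

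Genes of entry into the ER and exit from it followed the same order of groups by their fitted medians, but the vector mice differed in sign. Of 34 genes of translocation and oligosaccharyl transfer, 17 (50%) were members higher and none lower in mA3 tumours. Their median log2 changes were −0.04 under the vector and 0.71 under mA3. Of 41 COPI and COPII coat and cargo genes, 17 (41.5%) were higher and none lower, with medians of −0.12 and 0.56. Over all genes, 16.6% were members higher and 19.4% members lower. By mouse the translocation median was −0.23 in vector mouse 1 and 0.35 in vector mouse 9, beside 0.85 and 0.58 in the mA3 mice. The COPI and COPII median was −0.34 in vector mouse 1 and 0.14 in vector mouse 9, beside 0.67 and 0.51 in the mA3 mice. Both sets were less stable than the chaperones, since without vector adjacent 1 their counts of members higher were 8 of 34 and 11 of 41, with 0 and 1 lower. Their median differences kept their sign with each library left out, from 0.51 to 0.93 and from 0.53 to 0.91.

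Sec61a1, the pore subunit of the translocation channel, went from 102 and 37.3 CPM in adjacent liver to 42.9 and 44.97 in tumours under the vector, and from 60.9 and 93.4 to 229.6 and 243 under mA3. Vector adjacent 1 stood above the other 3 vector libraries, while both mA3 tumours were above all others; the difference was 2.28 ± 0.67. Stt3a and Stt3b, the catalytic subunits of oligosaccharyl transferase, had differences of 1.54 ± 0.59 and 1.21 ± 0.46. Srp54a and Srp54b, near-identical genes of the signal recognition particle whose reads may be split between them, had 1.93 ± 0.71 and 1.48 ± 0.58. Sec24d, a cargo adaptor of the COPII coat, had 36.8 and 63.04 CPM in the vector tumours against 68.1 and 69.5 in the adjacent liver of the same mice, and 89.4 and 113 CPM in the mA3 tumours against 55.4 and 52.6. Sec23a, its partner in the coat, had 27.7 and 45.5 CPM in the vector tumours against 82.3 and 56.4 in the adjacent liver of the same mice, and 76.9 and 73.97 CPM in the mA3 tumours against 50.8 and 62.3. Neither gene had overlap under either plasmid, and their differences were 1.37 ± 0.47 and 1.34 ± 0.49. The COPI subunits Copb1 and Copb2 and the cargo receptor Tmed9, whose vector groups overlapped, had differences of 1.40 ± 0.54, 1.39 ± 0.57 and 0.87 ± 0.37. Without vector adjacent 1 the difference was 1.38 for Sec61a1, 0.85 for Stt3a, 0.91 for Copb1 and 0.83 for Copb2.

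Over these 4 secretory lists together, 62 of 126 genes tested (49.2%) were members higher in mA3 tumours and 3 (2.38%) were lower, against 16.6% and 19.4% of all genes. Without overlap under either plasmid were 13 of the 126 higher and none lower, against 1.77% and 1.13% of all genes. The authors' deposited table of pathway labels holds 247 pathways with at least 20 genes tested. Protein export, picked here for its rank, had the highest share of members higher in mA3 tumours, 11 of 23 (47.8%). Protein processing in the ER came next with 62 of 154 (40.3%), 12 of them without overlap, and 6 (3.9%) in the other direction. The same shares of all genes stand beside these counts. Both pathways name the same kinds of genes as the 4 lists, so they are not separate observations.

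**Figure D3:**
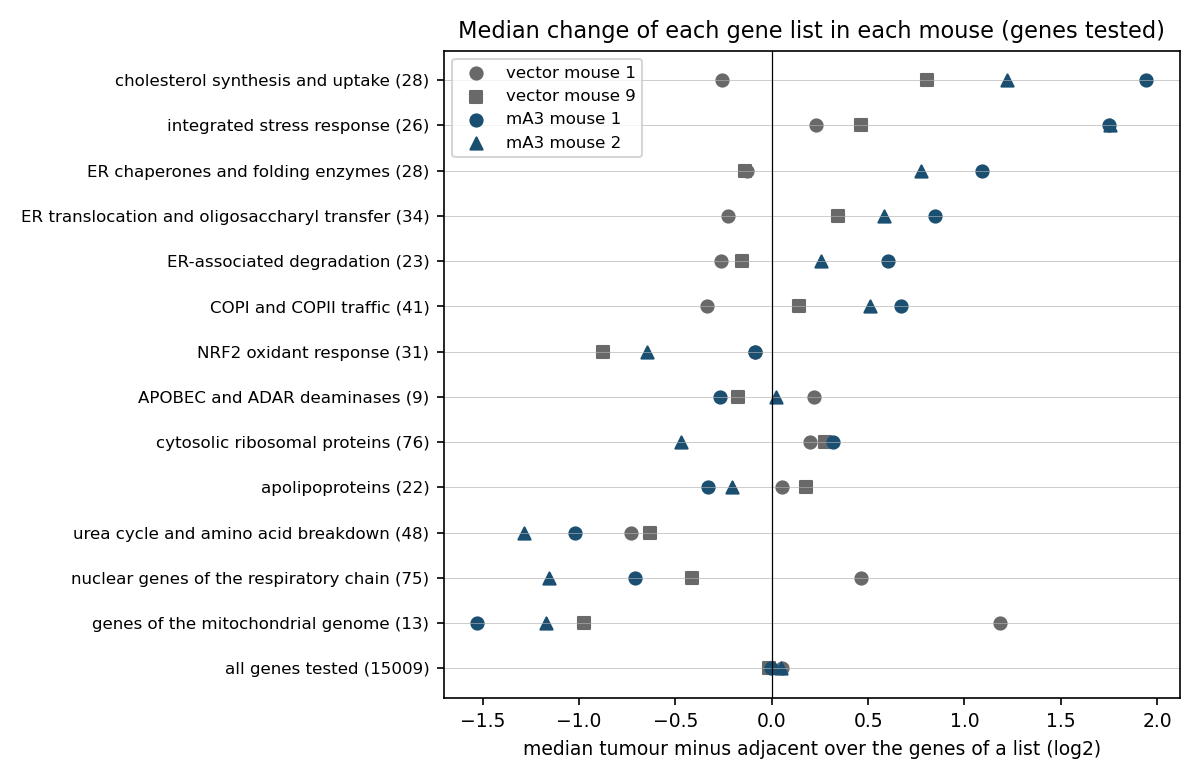
Median log2 change from adjacent liver to tumour over the genes of each described list (rows), as 1 point for each of the 4 mice. For ER chaperones the vector mice stand at −0.13 and −0.14 and the mA3 mice at 1.09 and 0.78, whereas for the mitochondrial genome vector mouse 1 stands at 1.18 and the other 3 mice between −1.53 and −0.97.

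The integrated stress response, the PERK and ATF4 arm, differed in size more than in direction. Of its 26 genes, 18 were higher in tumours under both plasmids. Members higher in mA3 tumours were 5 (19.2%), against 16.6% of all genes. The medians were 0.44 in vector and 1.79 in mA3 tumours. Atf3, Trib3, Phgdh, Ddit3 and Slc7a11 rose in the mA3 change (edgeR, adjusted p under 0.05), and none of them was a member. Eif2ak3, which encodes PERK, had 14.8 and 20.4 CPM in the vector tumours against 24.3 and 14.5 in the adjacent liver of the same mice, and 20.7 and 25.3 CPM in the mA3 tumours against 10.8 and 12.6, with overlap under the vector only and a difference of 1.11 ± 0.48. Chac1 and Gdf15, ATF4 targets, and Ppp1r15a, the phosphatase subunit that reverses the response, had overlap under both plasmids, with differences of 1.14 ± 0.84, 1.68 ± 1.61 and 0.25 ± 0.54 (−0.17 for the last without mA3 tumour 1). Slc7a5, an amino acid transporter at no more than 4.48 CPM, had 0.74 ± 0.59. Without vector tumour 9, 16 of the 26 genes were members higher and 2 lower in mA3 tumours. The difference was 0.70 for Eif2ak3 without vector adjacent 1, and 0.37 for Chac1 and −0.55 for Gdf15 without vector adjacent 9.

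Of 31 NRF2 oxidant response genes, 7 (22.6%) were members higher and 2 (6.45%) lower in mA3 tumours, against 16.6% and 19.4% of all genes. The list's median difference was 0.03. Single genes nevertheless had large differences. Abcc4, an efflux pump of the plasma membrane (ENSMUSG00000032849, chr14:118482692-118706219, minus strand), measured 6.37 and 6.98 CPM in vector adjacent liver, 4.24 and 4.97 in vector tumours, 6.88 and 4.26 in mA3 adjacent liver and 34.6 and 38.6 in mA3 tumours. The mA3 tumours were above all 6 other libraries by a wide margin and the vector groups did not overlap. The change under mA3 was 2.71 ± 0.34 and passed (adjusted p = 0.0334, edgeR) unless an mA3 library was left out, and the difference was 3.24 ± 0.47 (unadjusted p = 0.000113). The adjusted p of that difference was 0.000137 by DESeq2 and ran from 6.22e-05 to 1 over all alternatives.

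Srxn1, sulfiredoxin, which repairs oxidised peroxiredoxins, had 27.5 and 35.6 CPM in the vector tumours against 45.2 and 45.02 in the adjacent liver of the same mice, and 346 and 115 CPM in the mA3 tumours against 41.1 and 53.5. mA3 tumour 1 was far above mA3 tumour 2 and both were above the other 6 libraries. The difference between plasmids was 2.80 ± 0.70, and 1.80 without mA3 tumour 1. Nqo1, a quinone reductase, had 6.19 and 5.19 CPM in the vector tumours against 6.92 and 11.1 in the adjacent liver of the same mice, and 37.5 and 4.77 CPM in the mA3 tumours against 7.89 and 9.54. Only mA3 tumour 1 was high, so that the mA3 groups overlapped, and the difference of 1.93 ± 1.10 turned to −0.21 without that library. Cbr3, a carbonyl reductase, likewise reached 38.5 CPM in mA3 tumour 1 and 9.08 in mA3 tumour 2, with a difference of 3.76 ± 1.08, and Txnrd1, thioredoxin reductase, had 1.15 ± 0.56. Without mA3 tumour 1 these were 2.40 and 0.63. Sqstm1, the autophagy receptor p62, had 224 and 269.9 CPM in the vector tumours against 366 and 536 in the adjacent liver of the same mice, and 609 and 455 CPM in the mA3 tumours against 378 and 319. It had no overlap under either plasmid and a difference of 1.48 ± 0.52.

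Genes of cholesterol synthesis had large differences that rested on vector adjacent 1. Of 28 genes, 9 (32.1%) were members higher and 2 (7.14%) lower in mA3 tumours, against 16.6% and 19.4% of all genes. The median difference was 1.66. Without vector adjacent 1, 1 gene was a member higher and 4 were lower, with a median of −0.36. Without vector adjacent 9, 21 were higher and 2 lower, and without vector tumour 1, 19 were higher and 3 lower. Msmo1, a sterol methyl oxidase, had 131 and 60.7 CPM in the vector tumours against 227 and 15.4 in the adjacent liver of the same mice, and 278 and 233 CPM in the mA3 tumours against 48.97 and 84.99. The 2 vector adjacent libraries bracketed both vector tumours, and the difference of 2.27 ± 1.38 turned to −0.70 without vector adjacent 1. Cyp51, a sterol demethylase of the same pathway, had 2.53 ± 1.23 with all libraries and 0.13 without vector adjacent 1. Hsd17b7, a further enzyme of the pathway, went from 86.5 and 28.7 CPM in adjacent liver to 27.8 and 20.4 in tumours under the vector, and from 26.3 and 40.8 to 78.9 and 72.2 under mA3. Its groups did not overlap, although vector adjacent 1 stood far above vector adjacent 9, and the difference was 2.43 ± 0.71 with all libraries and 1.43 without vector adjacent 1. Abcg5, a subunit of the sterol exporter, ran the other way with 261 and 193 CPM in the vector tumours against 117 and 134 in the adjacent liver of the same mice, and 126 and 101 CPM in the mA3 tumours against 202 and 129, without overlap and with a difference of −1.40 ± 0.50.

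The other named genes without overlap that were higher in mA3 tumours belonged to no one list. Cldn2, a tight junction claudin, had 24.9 and 63.7 CPM in the vector tumours against 90.7 and 68.4 in the adjacent liver of the same mice, and 92.3 and 130.0 CPM in the mA3 tumours against 55.8 and 79.6. Ubqln2, an ubiquilin that carries proteins to the proteasome, had 7.85 and 18.8 CPM in the vector tumours against 19.5 and 22.8 in the adjacent liver of the same mice, and 32.2 and 32.4 CPM in the mA3 tumours against 17.9 and 15.5. In both genes vector tumour 1 was the lowest library, and the differences were 1.56 ± 0.66 and 1.62 ± 0.57. That of Cldn2 was 1.04 without vector tumour 1 and 2.40 without vector tumour 9. Tfcp2l1, a transcription factor gene, was at no more than 16.99 CPM and had a difference of 2.18 ± 0.68. Among the rest, the difference was 1.88 ± 0.57 for Ascc3, a helicase of alkylation repair and ribosome quality control, 1.69 ± 0.56 for Pard6b, a cell polarity gene, and 1.67 ± 0.56 for Lrrc41 (1.08 without vector adjacent 1). It was 1.45 ± 0.40 for Ubfd1, 1.32 ± 0.46 for Ywhag, a 14-3-3 protein gene, and 1.25 ± 0.40 for Ddx21, a nucleolar RNA helicase.

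Mitochondrial genes on the lists were members lower in mA3 tumours far more often than higher. Of 75 nuclear genes of the respiratory chain, 44 (58.7%) were members lower in mA3 tumours and none were higher. Their medians were 0.08 in vector and −0.92 in mA3 tumours. Of the 13 genes of the mitochondrial genome, 11 (84.6%) were lower and none higher, with medians of 0.13 and −1.25. Together with the mitochondrial ribosomal proteins, 70 of 137 genes (51.1%) were lower and 1 (0.73%) higher, against 19.4% and 16.6% of all genes. Their vector changes, however, differed between the mice. The respiratory chain median was 0.46 in vector mouse 1 and −0.41 in vector mouse 9, beside −0.71 and −1.15 in the mA3 mice, and that of the mitochondrial genome was 1.18 and −0.97, beside −1.53 and −1.17.

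Cox6c, a subunit of cytochrome c oxidase, had 190.3 and 90.9 CPM in the vector tumours against 118 and 145 in the adjacent liver of the same mice, and 51.8 and 48.1 CPM in the mA3 tumours against 103 and 183. Vector tumour 1 was the highest of the 8 libraries and vector tumour 9 was below all 4 adjacent libraries. The mitochondrial gene mt-Co3, a core subunit of the same enzyme, had 10119 and 4147 CPM in the vector tumours against 5502 and 7649 in the adjacent liver of the same mice, and 2034 and 2046 CPM in the mA3 tumours against 5337 and 6077, again with vector tumour 1 highest. The log2 differences were −1.62 ± 0.62 and −1.60 ± 0.75. Those of Atp5k, Cox7b, Atp5j2 and Ndufs5, small subunits of the ATP synthase and of complexes IV and I, lay between −1.73 and −1.28, and those of mt-Nd3, mt-Atp6, mt-Cytb and mt-Nd4 between −1.58 and −1.46. In all 8 of these genes the vector groups overlapped and the mA3 groups did not.

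The opposite direction of both lists rested on vector tumour 1, the library near adjacent liver on the first principal component and with the low Gpc3. Without it, 4 of the 75 respiratory genes and none of the 13 mitochondrial genes were members, and the median differences were −0.62 and −0.71. That of the mitochondrial genome also rested on vector adjacent 1, without which 2 of its 13 genes and 35 of the respiratory genes were members. Without vector tumour 9 the counts were 56 and 13. Without vector tumour 1 the difference was −0.99 for Cox6c, −0.82 for mt-Co3, −0.75 for Ndufs5, −0.89 for mt-Nd3, −0.68 for mt-Atp6, −0.81 for mt-Cytb and −0.69 for mt-Nd4, and Atp5k had −1.12 without mA3 adjacent 2. The medians under mA3 were below 0 in both mA3 mice. Ndufa1, a complex I subunit, with −1.22 ± 0.49, was the 1 respiratory gene without overlap under either plasmid; it was chosen for that.

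Ribosomal protein genes had smaller differences. Of 76 tested, 47 (61.8%) were members lower and 5 (6.58%) higher in mA3 tumours, against 19.4% and 16.6% of all genes. The medians were 0.24 under the vector and −0.13 under mA3, with a median difference of −0.38. By mouse the median change was 0.20 and 0.28 under the vector and 0.32 and −0.47 under mA3, so that only mA3 mouse 2 was below 0. Without mA3 adjacent 2 the count lower was 6, with 15 higher, and the median difference was 0.09. Rpl35a, of the large subunit, had 186 and 142 CPM in the vector tumours against 117 and 138 in the adjacent liver of the same mice, and 87.1 and 85.03 CPM in the mA3 tumours against 96.1 and 179. It had no overlap, though mA3 adjacent 1 was close to the tumours, and the difference was −1.04 ± 0.53, and −0.52 without mA3 adjacent 2. Rpl36 and Rps29 had differences of −1.02 ± 0.52 and −0.85 ± 0.53, with overlap under mA3 in both, and −0.59 and −0.29 without mA3 adjacent 2. Ribosomal protein genes have many processed copies with which they can share reads, so their levels are uncertain. In the authors' deposited pathway labels, Oxidative phosphorylation had 62 of 118 genes (52.5%) and Ribosome 64 of 125 (51.2%) among the members lower in mA3 tumours. The share over all genes was 19.4%. These pathways name the same kinds of genes as the lists, so they are not separate observations. Their counts with a library left out were not examined.

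Gene length moved with membership. Of the shortest quintile of genes tested, 29.3% were members lower and 8.83% higher in mA3 tumours, with a median difference of −0.42. Of the longest quintile, 14.9% were lower and 20.1% higher, with a median of 0.08. Respiratory and mitochondrial genes had median lengths of 2409 and 784 bases against 4911 over all genes, and the ER chaperones 4293.5. The median of long minus short genes within a library was lowest in mA3 adjacent 2 (−0.23) and vector tumour 1 (−0.20) and highest in the mA3 tumours (0.15 and 0.33). With a length offset in the model the median difference was −0.60 for respiratory genes, −0.81 for the mitochondrial genome, −0.08 for ribosomal proteins and 1.15 for ER chaperones. The members among them were then 35, 6 and 21 lower in the first 3 lists. Any further part of gene length in these results was not tested.

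**Figure D4:**
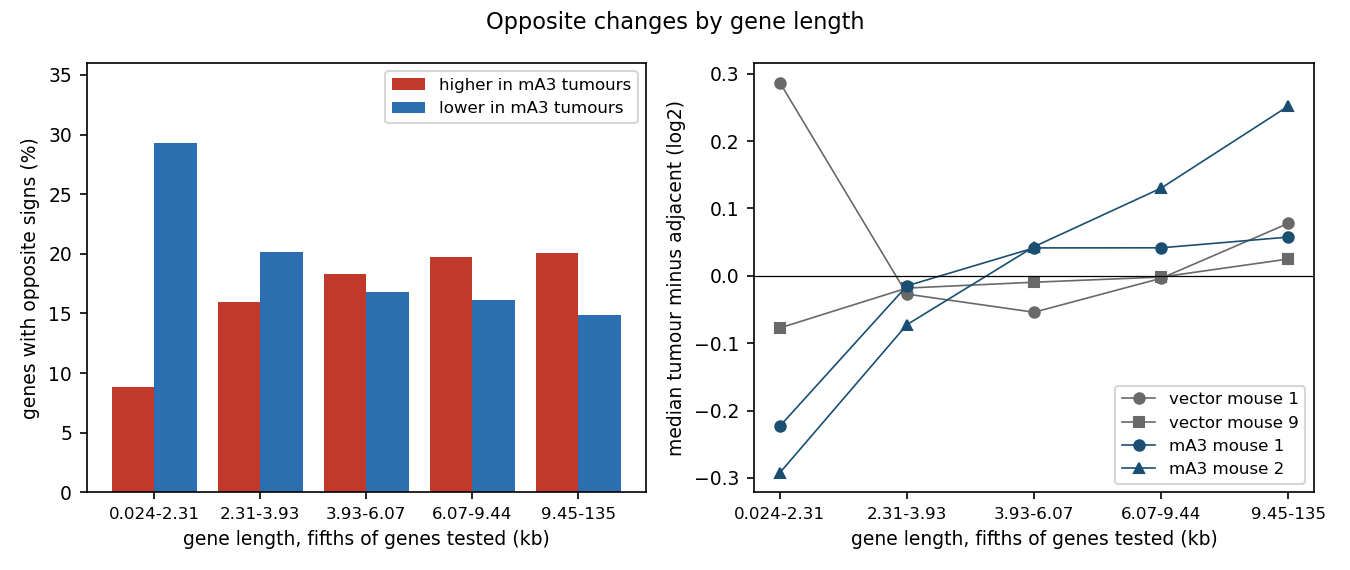
Left, share of genes tested that were members in each direction (y axis, percent) in quintiles of gene length (x axis, in kb). Right, median log2 change from adjacent liver to tumour in each quintile, 1 line per mouse. Members lower in mA3 tumours go from 29.3% in the shortest to 14.9% in the longest quintile, and the shortest quintile has a median of 0.29 in vector mouse 1 against −0.08 to −0.29 in the other 3 mice.

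Genes of hepatocyte metabolism were among the named members lower in mA3 tumours. Nr0b2, the nuclear receptor SHP, which represses bile acid synthesis (ENSMUSG00000037583, chr4:133553376-133556536, plus strand), measured 34.9 and 26.4 CPM in vector adjacent liver, 62.3 and 70.1 in vector tumours, 38.9 and 22.8 in mA3 adjacent liver and 20.2 and 15.6 in mA3 tumours. Both vector tumours were above all other libraries and both mA3 tumours below all others, with a difference of −1.90 ± 0.48 (unadjusted p = 0.00413). Ftcd, a bifunctional enzyme of histidine breakdown, had 928 and 658 CPM in the vector tumours against 438 and 380.4 in the adjacent liver of the same mice, and 312 and 312 CPM in the mA3 tumours against 526 and 395. It had no overlap under either plasmid and a difference of −1.52 ± 0.51.

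Of 22 apolipoprotein genes, 7 (31.8%) were members lower and 2 (9.09%) higher in mA3 tumours, against 19.4% and 16.6% of all genes. The median difference was −0.43. Apoc3, an inhibitor of triglyceride clearance, had 2504 and 2005 CPM in the vector tumours against 966 and 1482 in the adjacent liver of the same mice, and 853 and 614 CPM in the mA3 tumours against 1084 and 1198. Apoc1, which lies in the same family of small exchangeable apolipoproteins, had 3787 and 3015 CPM in the vector tumours against 1614 and 2631 in the adjacent liver of the same mice, and 1166 and 1204 CPM in the mA3 tumours against 1509 and 2561. In both, vector tumour 1 was the highest library and the mA3 tumours the lowest, with differences of −1.52 ± 0.58 and −1.46 ± 0.65. Apoa2 and Apoc4, with overlap under the vector, had −2.07 ± 0.75 and −2.07 ± 0.81, whereas Apob, the large structural apolipoprotein, had 1.41 ± 0.83 with overlap under both plasmids. Apoc4 had −1.34 without vector tumour 1, and Apob 0.67 without vector adjacent 1.

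Urea cycle and amino acid genes mostly moved in the same direction under both plasmids. Of 48 tested, 34 were lower in both tumours. Members were 10 lower (20.8%) and 2 higher (4.17%) in mA3 tumours, against 19.4% and 16.6% of all genes. The median changes were −0.47 under the vector and −1.17 under mA3. Sds, serine dehydratase, had 90.7 and 14.03 CPM in the vector tumours against 38.5 and 29.2 in the adjacent liver of the same mice, and 12.4 and 11.8 CPM in the mA3 tumours against 97.1 and 75.4. Vector tumour 1 was above and vector tumour 9 below both vector adjacent libraries, and the difference was −3.46 ± 1.00, and −1.56 without vector tumour 1. Hal, histidase, had −1.15 ± 0.69 with all libraries, −0.58 without vector adjacent 9 and −2.08 without vector adjacent 1, and Glud1 and Gpt2, which link amino acids to the citric acid cycle, had 1.30 ± 0.58 and 0.82 ± 0.56 in the other direction, with 0.43 for Gpt2 without mA3 tumour 1.

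Leap2, a liver peptide hormone that antagonises the ghrelin receptor, had 26.2 and 15.7 CPM in the vector tumours against 14.4 and 17.02 in the adjacent liver of the same mice, and 2.26 and 3.98 CPM in the mA3 tumours against 13.6 and 29.9. Both mA3 tumours were below all other libraries, while the vector groups overlapped. The change under mA3 was −2.79 ± 0.50 and passed (adjusted p = 0.0481, edgeR), and the difference was −3.21 ± 0.68, with an adjusted p of 0.0423 by DESeq2 and a range of 4.66e-05 to 1 over all alternatives. Of the 5409 members, 6 passed in the mA3 change, against 178 of all 15009 genes tested (0.786% higher and 0.4% lower). Membership was set by the sign of this same change, so the lower share among members is no result about them. Besides Hspa5, Abcc4 and Leap2 the 6 members were Wscd1, with a difference of 3.84, Hamp2, a hepcidin gene, with −5.76, and the predicted gene Gm26588, with −2.76, named because they passed. None of the 178 calls of the mA3 change passed when any 1 of the 4 mA3 libraries was left out.

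Fndc4, a secreted fibronectin-domain protein gene, and Fxyd1, a regulator of the sodium pump, were lower in both mA3 tumours with overlap under the vector, with differences of −1.49 ± 0.36 and −2.20 ± 0.60. Brca2, the homologous recombination mediator, had 9.06 and 10 CPM in the vector tumours against 6.42 and 6.12 in the adjacent liver of the same mice, and 4.08 and 3.98 CPM in the mA3 tumours against 12.03 and 6.25. It had no overlap under either plasmid, although mA3 adjacent 2 was level with the vector adjacent libraries, and the difference was −1.79 ± 0.54. Chd3, a chromatin remodeller of the NuRD complex, had −1.29 ± 0.49, and Adra1b, an adrenergic receptor, −1.70 ± 0.54 (−1.11 without vector tumour 1). The difference was −1.82 ± 0.58 for Rtp3, −1.70 ± 0.57 for Klhl17, −1.52 ± 0.55 for Rab3a, a vesicle GTPase gene, −1.51 ± 0.58 for Fam221b and −1.35 ± 0.58 for Gimap3, a lymphocyte GTPase gene. All but Fndc4 and Fxyd1 were without overlap.

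The deaminase family showed no common direction. Of 9 deaminase and editing genes tested, 2 (22.2%) were members higher and 3 (33.3%) lower in mA3 tumours, against 16.6% and 19.4% of all genes. The median difference was −0.14. Apobec1, which edits Apob mRNA, and Adarb1, an adenosine deaminase, overlapped under both plasmids, with differences of −0.41 ± 0.69 and −0.16 ± 0.46. Syncrip, an editing cofactor, and Cda, cytidine deaminase, overlapped under the vector, with 0.58 ± 0.41 and 1.23 ± 1.05. The differences of Apobec1, Adarb1 and Cda changed sign with 1 library left out (vector tumour 9, vector tumour 1 and vector adjacent 9, giving 0.33, 0.28 and −0.12), and that of Syncrip was 0.29 without vector adjacent 1.

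The opposite changes could be read from the tumour side or from the adjacent side. Among the 266 members without overlap that were higher in mA3 tumours, the median gap between plasmids (mA3 minus vector, log2) was 0.67 in tumours and −0.21 in adjacent liver, and in 218 the gap was larger in tumours, as it was in 10669 of the 15009 genes tested. Among the 169 lower ones the gaps were −0.93 and 0.28, and in 136 the tumour gap was larger. For ER chaperones the median gap was 1.06 in tumours and −0.04 in adjacent liver. Apobec3 showed the reverse, with 0.17 ± 0.58 in tumours and 2.67 ± 0.62 in adjacent liver.

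Markers of other cell types moved with the groups in some sets and not in others. The summed level of 38 stellate cell, fibroblast and matrix genes was 1176 to 1639 CPM in vector adjacent liver and 1029 to 3055 in vector tumours. It was 1264 to 1480 CPM in mA3 adjacent liver and 3585 to 4021 in mA3 tumours. Of these genes 1 was a member higher and 2 were lower. Their median log2 change was alike, 0.61 under the vector and 0.59 under mA3, while a sum is weighted by abundant genes. For 31 macrophage genes the sums were 522 to 800, 316 to 954, 921 to 1074 and 810.0 to 1457 CPM, with 2 members, both lower. Their median log2 change was −0.44 under the vector and −0.69 under mA3. Single markers could run another way than their list. In mA3 mice the Kupffer cell gene Clec4f went from 135 and 107 CPM in adjacent liver to 25.2 and 20.6 in tumours. The stellate gene Dcn went from 111 and 123 to 59.3 and 66.8 CPM, while Col1a1 went from 9.63 and 1.65 to 22.5 and 35.6. For 34 endothelial genes, with 5 members higher and 2 lower, the sums were 696 to 843, 769 to 1017, 783 to 806 and 866 to 984 CPM. For 24 T and NK cell genes, of which 8 were members lower and 1 higher, the sums lay between 24.1 and 37.9 CPM in all libraries. For 23 bile duct and progenitor genes, with 1 member higher and 2 lower, they were 629 to 758, 878 to 1263, 678 to 927 and 1412 to 2989 CPM in the same order of groups. The duct markers Krt7, Krt19 and Epcam were at no more than 2.52 CPM in any library, so these sums came from other genes of the list. Krt19 was at 0.34 and 0.33 CPM in the mA3 tumours and Epcam at 0.79 and 1.70, against 0.87 and 0.82 and 0.70 and 0.82 in mA3 adjacent liver. Of 20 neutrophil genes 7 were tested, 1 a member higher and 4 lower, and their sums were 9.83 to 115, 21.8 to 631, 17.6 to 27.8 and 418 to 529 CPM. Most of the high sums was Lcn2, at 618 CPM in vector tumour 9 and 521 and 411 CPM in mA3 tumours 1 and 2; S100a8 was at no more than 1.66 CPM and Ly6g at 0 in 6 of 8 libraries. The member counts of these sets stand beside 16.6% higher and 19.4% lower over all genes. The part of cell composition in the opposite changes was not tested.

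**Figure D5:**
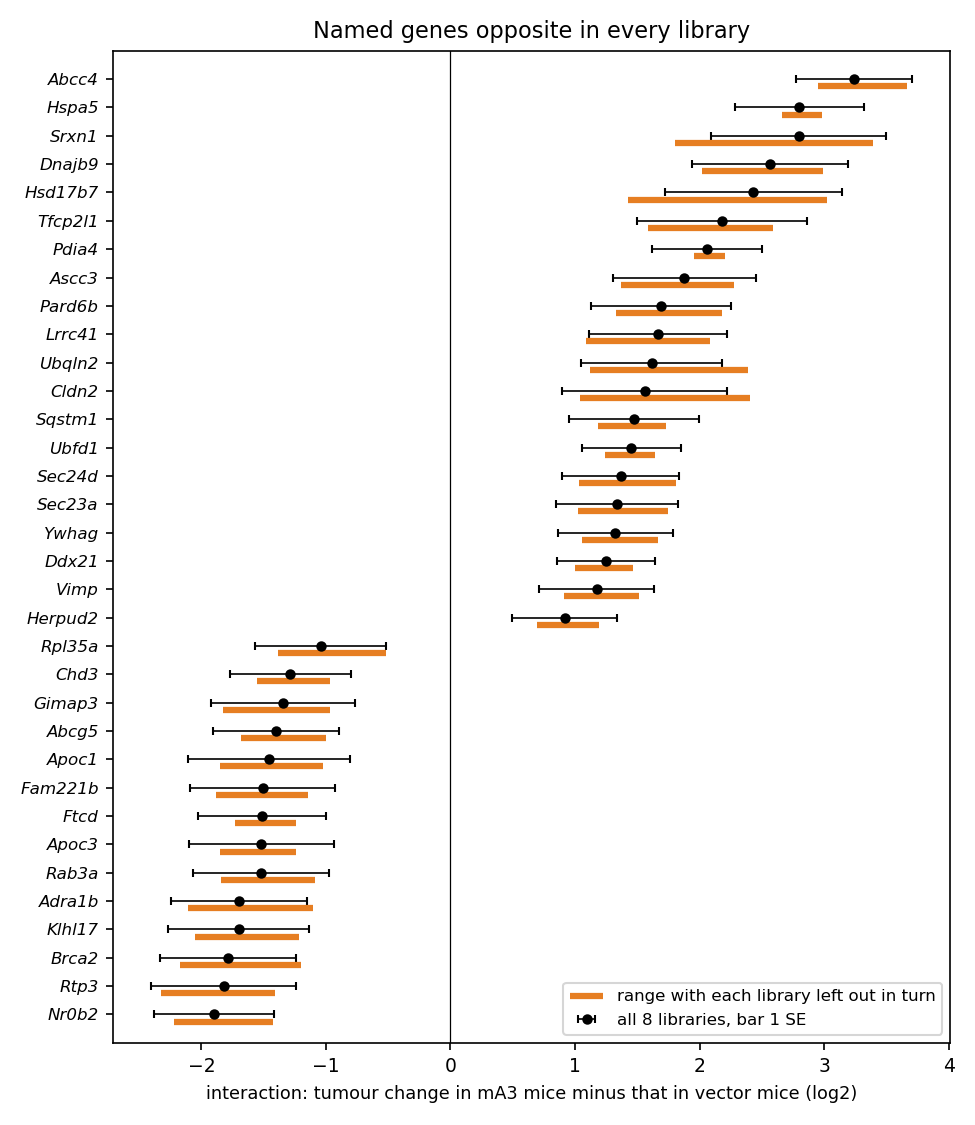
Interaction difference on the log2 scale (x axis, mA3 change minus vector change) of the 34 named members without overlap (rows); the point is the value with all 8 libraries, the thin bar 1 SE, and the orange bar the range with each library left out in turn. The orange bar of Hspa5 is narrow, near 2.80, and that of Hsd17b7 reaches down to 1.43. None crosses 0, which the choice of genes without overlap largely fixes in advance.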

How the data were processed

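RNA of 8 mouse liver samples was sequenced. Frozen tissue was extracted with Trizol and standard Illumina libraries were made, per the labels' protocols. The deposited table holds whole read counts per gene and FPKM values (fragments per kilobase, scaled to library size) computed by the authors, per the file headers. The 2 columns matched: 7555 of 7555 well-covered genes (100 counts or more per library) had an FPKM equal, within 1%, to the count over the library total and 1 gene length. The aligner, counting tool and strandedness were not given in the sources used here, so reads of overlapping genes cannot be told apart. The submitters' processing notes name mm8 and Agilent Feature Extraction 10.7; of 34344 identifiers in GENCODE vM21 (GRCm38), 81.7% had positions within 1 bp of it, and positions are given in that build.

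Counts were analysed with edgeR 4.0.16 in R 4.3.3, with filterByExpr by group, TMM factors and quasi-likelihood fits of all 8 libraries by group, with 4 residual degrees of freedom and a biological coefficient of variation of 39.1%. P-values were Benjamini-Hochberg adjusted over 15009 genes at a threshold of 0.05, and an SE was derived from the F statistic. A member had fitted changes of opposite sign. The principal component and the changes by mouse used log2 CPM with a prior count of 2. Tumour and adjacent libraries with 1 number come from the same mouse by their titles, which is the pairing used for the block; their deviations from the group means correlated at 0.107 and 0.175. DESeq2 1.42.0 and limma 3.58.1 served as alternatives, with a length offset added after seeing the data. The analysis was tested on simulated data.

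Named were Apobec3, in each direction the 12 members without overlap that had the largest smaller change and the 5 with the smallest interaction p (mean of at least 5 CPM, no predicted genes), and up to 5 members with the smallest p from each of 13 lists, out of 56 gene lists written from general knowledge; genes outside this are said to be chosen, and some that the rule named are not reported here. The members and lists were chosen with earlier results of these data known.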

Additional observations from a re-analysis of the deposited data

Results flagged for a closer look

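In 34 named members every tumour library moved one way under the vector and the opposite way under mA3, so that tumour and adjacent libraries overlapped under neither plasmid. This lack of overlap singled them out, and the rule for naming genes used it too. The test of the difference did not pass for any of them in the edgeR quasi-likelihood model (smallest adjusted p = 0.842), and no explanation was weighed.

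The log2 difference between the mA3 and the vector change was as follows for the 20 genes higher in mA3 tumours. Among chaperone, degradation and coat genes it was 2.80 for Hspa5, 2.56 for Dnajb9, 2.06 for Pdia4, 1.37 for Sec24d, 1.34 for Sec23a, 1.18 for Vimp and 0.92 for Herpud2. Among oxidant response, sterol and autophagy genes it was 3.24 for Abcc4, 2.80 for Srxn1, 2.43 for Hsd17b7 and 1.48 for Sqstm1. For the rest it was 2.18 for Tfcp2l1, 1.88 for Ascc3, 1.69 for Pard6b, 1.67 for Lrrc41, 1.62 for Ubqln2, 1.56 for Cldn2, 1.45 for Ubfd1, 1.32 for Ywhag and 1.25 for Ddx21.

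In the 14 genes lower in mA3 tumours, the liver metabolism and lipid genes had −1.90 for Nr0b2, −1.52 for Ftcd, −1.52 for Apoc3, −1.46 for Apoc1 and −1.40 for Abcg5. The others had −1.82 for Rtp3, −1.79 for Brca2, −1.70 for Klhl17, −1.70 for Adra1b, −1.52 for Rab3a, −1.51 for Fam221b, −1.35 for Gimap3, −1.29 for Chd3 and −1.04 for Rpl35a. With each library left out in turn, none of the 34 changed sign. The lack of overlap that chose them largely fixes this in advance, so it is no measure of stability.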

How the results depend on the processing

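With 2 libraries per group, the interaction had few degrees of freedom. It called 0 genes under every alternative except DESeq2 (12) and edgeR without the filter (316). Vector change calls were 674 without the filter and 232 by DESeq2. Calls of the mA3 change, 178 with all libraries, were 2063 without the filter, 1607 by DESeq2, 349 on log2(FPKM + 0.1), 395 on log2(FPKM + 1) and 111 by limma-voom. The replicate block gave 560 calls of the mA3 change, 0 of the interaction, and changed no other call. Requiring a change of at least 0.5 under both plasmids left 681 members and 134 without overlap (49 higher, 85 lower), and at least 1 left 118 and 29 (5 and 24). Without the filter 312 genes without overlap were lower in mA3 tumours. The cause was not tested.

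With 1 library left out, the lone library of that group was assumed to vary like the other groups. Calls ranged from 0 to 142 for the vector change (highest without vector tumour 1), from 0 to 1090 for the mA3 change (0 without any 1 mA3 library, 308 when vector adjacent 9 was absent, 1074 for vector tumour 9 and 1090 for vector tumour 1) and from 0 to 0 for the interaction. Members numbered 4427 to 7254, and those without overlap 667 to 2697 (366 to 1312 higher, 301 to 1385 lower), since fewer orderings then have to hold. List medians ranged from 0.84 to 1.27 for ER chaperones, 0.80 to 2.14 for the integrated stress response, −0.36 to 2.53 for cholesterol synthesis, −0.97 to −0.50 for urea and amino acid genes, −0.59 to −0.26 for apolipoproteins and −0.22 to 0.82 for NRF2 genes. Of the 87 named genes, 7 reversed, all with a library left out. Their ranges were −0.70 (without vector adjacent 1) to 3.18 for Msmo1, −0.12 to 2.30 for Cda and −0.55 to 3.33 for Gdf15 (both lowest without vector adjacent 9), −0.17 to 0.60 for Ppp1r15a and −0.21 to 2.77 for Nqo1 (both lowest when mA3 tumour 1 was absent), −0.48 to 0.28 for Adarb1 (highest without vector tumour 1) and −0.89 to 0.33 for Apobec1 (highest without vector tumour 9). Ppp1r15a was also at −0.06 without vector adjacent 9.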

Other observations

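Of the 435 members without overlap, 41 were on any of the 56 gene lists, 23 higher and 18 lower in mA3 tumours. The share of all genes tested that were on a list was not counted, so this is no trait of the members. Of the 12 genes that DESeq2 called for the interaction, Ak7, an adenylate kinase gene at a mean of 3.74 CPM, had the highest log2 difference among members, 5.77 ± 1.39 (adjusted p = 0.0423). Among the called genes that changed in the same direction under both plasmids were Trib3, a pseudokinase gene of the ATF4 response, at 3.54 ± 0.80, and G6pc, glucose-6-phosphatase, at −3.92 ± 0.94. These genes were chosen after their values were seen.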
